A study of Mus musculus with 17 samples.

Results

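The ubiquitin-proteasome genes described here are the protein-coding genes whose symbols begin with Usp, Ube2, Ube3, Ube4, Fbx, Rnf, Trim, Cul, Klhl, Psm or Asb in the deposited count table of mouse oocytes. A digit had to follow Usp, Rnf, Trim, Cul and Asb, and the Usp17l copies were set aside. Within the table a gene was taken by its name alone, but the subfamilies were chosen with earlier results of these data known. Every row of the table had itself been selected on measured values of these libraries, as described below. The table lists 2615 genes, 2259 of them protein-coding, and 82 carry such a name: 22 Fbx, 18 Rnf, 12 Psm, 11 Trim, 6 Ube2, 5 Usp, 5 Klhl, 1 Ube3, 1 Cul and 1 Asb gene. No Ube4 gene is listed.

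Ubiquitin is passed to a protein by a chain of enzymes: an activating enzyme, a conjugating enzyme (the Ube2 genes) and a ligase that picks the substrate. Rnf and Trim proteins are mostly ligases with a RING domain, Ube3a belongs to the HECT ligases, and Fbx, Klhl and Asb proteins are substrate receptors that plug into ligases built on a cullin scaffold (Cul). Usp proteins remove ubiquitin, and the proteasome, built from Psm subunits, degrades the tagged proteins. In oocytes this machinery is known for the destruction of cyclin B and securin that lets chromosomes separate, and for clearing maternal proteins after fertilisation.

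RNA came from oocytes labelled MII, the stage at which an ovulated egg waits for sperm, of C57BL/6J mice aged 8 weeks. The study names superovulated oocytes as the source of the sequenced RNA in both groups. Libraries of the Ehmt2GKO group came from Ehmt2(flox/flox); Gdf9-Cre females, in which exons 4 to 20 of Ehmt2, the gene of a histone H3 lysine methyltransferase, are deleted, and control libraries came from Ehmt2(flox/flox) females, so both groups carry the floxed alleles and the Cre transgene is in 1 group alone. The Gdf9 promoter drives the recombinase in oocytes from the primordial follicle onward, and the follicle cells around them keep the gene. Each group has 3 libraries, control 1, 2 and 6 and Ehmt2GKO 3, 4 and 5. How many oocytes or mice entered a library is not given in the sources used here, nor is the meiotic stage of single oocytes. The study describes impaired completion of the first meiotic division in oocytes of this genotype, while both groups bear the MII label here, so the deletion and a difference in stage cannot be told apart. In such pooled material, fewer cells holding a transcript and less of it per cell cannot be told apart either.

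The table is a selected one. Each of its 2615 genes has an adjusted P below 0.05 in the authors' own test of these same 6 libraries, and genes outside it were not analysed here. Summed listed counts ran from 4060653 to 4258350 per library, which is the depth of the listed genes and not of the whole libraries. Ehmt2 has no row, so the deletion was not checked here. Of 22 oocyte markers 8 are listed, 5 of them lower in Ehmt2GKO and 3 higher (Mos, Nlrp5 and Padi6, at log2 fold changes of 0.51, 0.42 and 0.48). Zp3 alone among the 8 passed the call threshold, at -1.05. Of 24 cumulus or granulosa markers 2 are listed: Ptgs2 had 6, 10 and 14 counts in control and 107, 74 and 59 in Ehmt2GKO, and Kitl had 368, 325 and 335 against 225, 254 and 188. No blood and immune (0 of 10) or fibroblast and theca marker (0 of 8) is listed. The part of other cells in the results was not tested.

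Of the 435 genes with such names in the mouse annotation, 82 are in the table, or 18.9%, against 10.3% of all annotated protein-coding genes (2259 of 21951). Unlisted genes have no counts here, so these shares could not be limited to genes that the oocytes express. By subfamily the listed share was 22 of 77 Fbx, 18 of 85 Rnf, 11 of 68 Trim, 12 of 50 Psm, 6 of 37 Ube2, 5 of 51 Usp, 5 of 36 Klhl, 1 of 8 Cul, 1 of 18 Asb and 1 of 3 Ube3 genes. Members held 12.5%, 11.8% and 11.9% of the listed counts in control libraries 1, 2 and 6. In Ehmt2GKO libraries 3, 4 and 5 they held 11.1%, 11.5% and 10.6%. Every Ehmt2GKO library was thus below every control library in this share. The parts went different ways. Mean shares fell from 5.91% to 4.21% for 10 Fbxw genes of a chromosome 9 cluster and from 0.585% to 0.409% for Psm genes. The share of the other 60 members rose from 5.59% to 6.43%, with Trim61 alone going from 3.01% to 3.99%. The gain of Trim61 was larger than that of the 60 together, so the summed share of the rest of them fell.

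Levels were very unequal among the members. Set per kb of exon, so that genes of different length can be compared, Trim61 stood first with a control mean of 63442 normalised counts per kb (counts scaled to a common library size). The next 5 were all Fbxw genes of 1 cluster on chromosome 9: Fbxw14 with 35966, Fbxw24 with 33173, Fbxw28 with 24512, Fbxw22 with 12979 and Fbxw18 with 11347. Trim13 followed with 9717. Of the 20 members above 1000 normalised counts per kb in control, 9 belonged to that cluster. Psmb2 had the highest level per kb among the proteasome genes, at 1463, and Cul5 had 824. At the other end stood Klhl6 and Fbxo27, each with 0 to 3 counts in every control library. Exon bases of 21 members are shared with another annotated gene, and 6 members (Fbxw14, Fbxw28, Psma5, Psmd2, Trim13 and Ube2h) have a near-identical copy elsewhere in the annotation, at 95% identity or more, whose reads could be split.

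**Figure D1:**
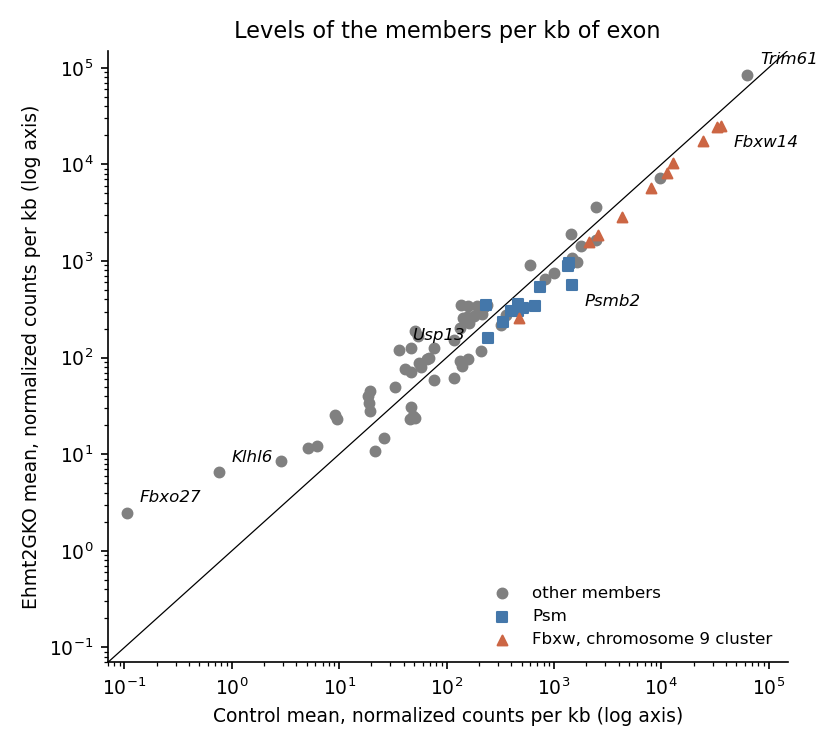
Mean level of each of the 82 members in control (x axis) and Ehmt2GKO (y axis) oocytes, in normalised counts per kb of exon on log axes, with n = 3 libraries a group and the line of equality. Fbxw cluster genes (triangles) all lie below the line, Psm genes (squares) lie below it except Psmd3, and Trim61 at the top right lies above it.

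Two-sided edgeR quasi-likelihood tests with Benjamini-Hochberg adjustment over the 2516 genes with enough counts compared Ehmt2GKO with control oocytes. A gene was called where its fold change exceeded 2 and its adjusted P was below 0.01. Among 81 tested members (Fbxo27 had too few counts), 16 were called, or 19.8%, against 35.7% of all tested genes. Higher in Ehmt2GKO were 13 of them (16.0%, against 18.7% of all tested genes), and 3 were lower (3.70%, against 16.9%). Usp13, Usp11, Usp25, Fbxo3, Fbxo15, Trim40, Trim30d, Trim6, Asb4, Rnf165, Rnf149, Rnf11 and Klhl6 rose, whereas Psmb2, Fbxo47 and Rnf207 fell. Klhl6 and Rnf11 reached the minimum count of 10 in all libraries of the Ehmt2GKO group alone, so they could enter the test through the group where they are high, and without them 14 of 79 members were called, 11 of them higher. Members changed by less than other listed genes: the median size of the log2 fold change, sign left out, was 0.59 for members and 0.76 for all tested genes. Their median normalised count was also higher, 735 against 358 for all tested genes. The count of lower calls depended on a few genes close to the fold of 2. It was 6 without control 1 and 5 without control 2, control 6 or Ehmt2GKO 3, in place of 3. Without Ehmt2GKO 4 it was 4, and without Ehmt2GKO 5 it was 2. With 3 libraries a group an exact permutation test of a single gene cannot go below P = 0.10, and since the genes were selected on the same contrast, adjusted P values here order the genes and say little more.

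The signed median log2 fold change was -0.33 for members and -0.32 for all tested genes. Since selection removed genes near 0, 39 members lay above 0 and 42 below, and the median sits at the edge of a gap. At an adjusted P below 0.01 with no limit on the fold, 80 of 81 members differed (39 higher and 41 lower), against 98.8% of all tested genes. The exception was Fbxw22 (edgeR adjusted P = 0.0103). The 2 groups did not overlap in 78 members, against 98.3% of all tested genes, and overlapped in Psmb3, Psmd3 and Rnf141.

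**Figure D2:**
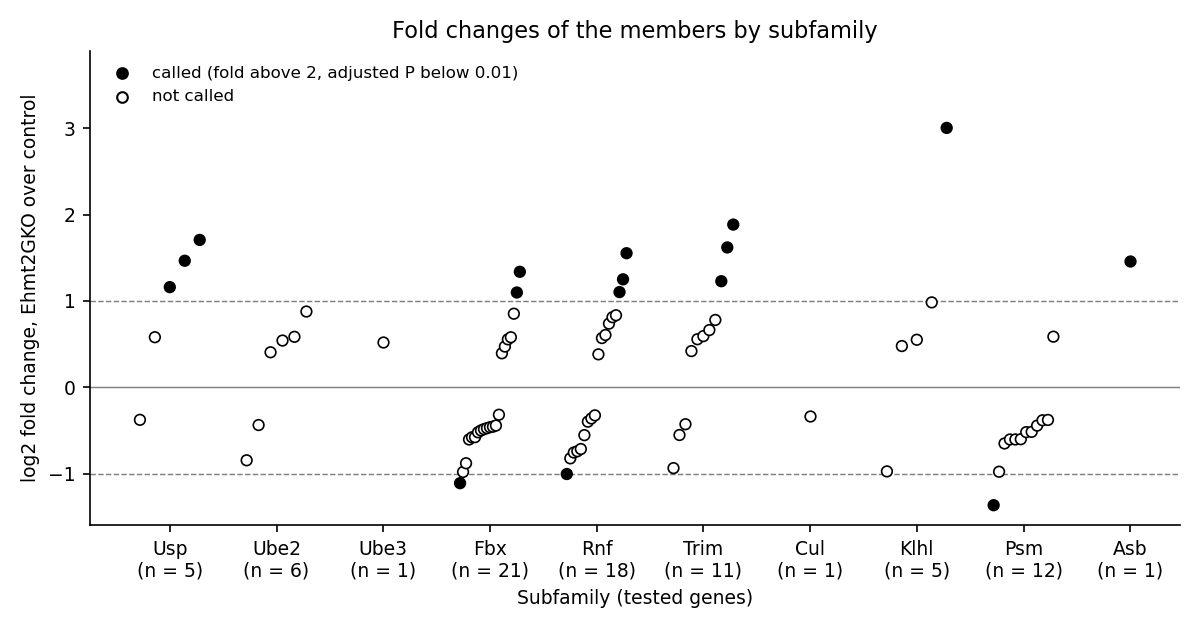
Log2 fold change (y axis, Ehmt2GKO over control, from 3 against 3 libraries) of the 81 tested members in each subfamily (x axis), with filled points for called genes and dashed lines at a fold of 2. Psm values lie below 0 except 1, and Usp holds 3 called genes among 5 (35.7% of all tested genes were called). Of 21 Fbx values 7 lie above 0, and those of the 10 Fbxw cluster genes lie between -0.88 and -0.32.

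The largest group with values on 1 side was the Fbxw cluster of chromosome 9. Fbxw proteins are F-box receptors with WD repeats that bind Skp1 and so join a Cul1 ligase, and several genes of this array are known to be expressed in oocytes. On GRCm38 it runs from 109139447 to 109790670, 651 kb with 15 annotated Fbxw genes on the minus strand and 0 protein-coding genes of other names between them. Of the 14 protein-coding Fbxw genes 10 are listed, Fbxw13, Fbxw14, Fbxw15, Fbxw16, Fbxw18, Fbxw20, Fbxw22, Fbxw24, Fbxw27 and Fbxw28. Fbxw19, Fbxw21, Fbxw25 and Fbxw26 were not analysed here. The transcribed pseudogene Fbxw23, no member, is listed as well.

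Promoters of most genes of the cluster resemble each other, and the following are shown because they belong to genes of the same array that lay on the same side of 0. RefSeq promoters (GRCm38.p6, 250 bases before to 50 after the start, minus strand) were found for 7 of the 10 cluster members. Capitals mark every match of the E-box CANNTG, read on either strand, in Fbxw14 (chr9:109287627-109287926), Fbxw24 (chr9:109626010-109626309) and Fbxw20 (chr9:109234705-109235004).
Fbxw14: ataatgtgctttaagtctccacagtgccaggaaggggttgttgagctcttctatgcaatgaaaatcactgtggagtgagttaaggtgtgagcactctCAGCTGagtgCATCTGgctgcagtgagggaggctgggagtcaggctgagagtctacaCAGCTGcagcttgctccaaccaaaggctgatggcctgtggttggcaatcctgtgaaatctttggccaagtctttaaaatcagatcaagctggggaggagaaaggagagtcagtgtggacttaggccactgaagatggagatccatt
Fbxw24: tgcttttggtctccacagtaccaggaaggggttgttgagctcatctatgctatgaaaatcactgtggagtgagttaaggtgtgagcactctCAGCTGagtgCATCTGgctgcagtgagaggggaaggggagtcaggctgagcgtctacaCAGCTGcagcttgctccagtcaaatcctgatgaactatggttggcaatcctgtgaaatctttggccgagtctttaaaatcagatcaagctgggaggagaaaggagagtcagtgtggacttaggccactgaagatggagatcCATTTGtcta
Fbxw20: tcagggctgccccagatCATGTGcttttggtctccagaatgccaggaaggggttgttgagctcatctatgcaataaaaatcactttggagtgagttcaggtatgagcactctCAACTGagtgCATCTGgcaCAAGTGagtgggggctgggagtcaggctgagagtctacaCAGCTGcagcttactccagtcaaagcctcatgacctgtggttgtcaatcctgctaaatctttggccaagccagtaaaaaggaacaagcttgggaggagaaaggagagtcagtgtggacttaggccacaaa

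Compared with Fbxw14, the promoter was 97% identical in Fbxw28, 89.6% in Fbxw24, 88.2% in Fbxw15, 85.3% in Fbxw16, 84.1% in Fbxw18 and 79.4% in Fbxw20. Among cluster genes that are not members, it was 91.8% in Fbxw26, 88.2% in Fbxw21, 87.9% in Fbxw25 and 78.2% in Fbxw19. The pseudogene Fbxw23, also lower in Ehmt2GKO at -0.96, had 48.0%. Whether promoter likeness goes with the fold change was not tested. The first 3 runs in capitals are the same letters in Fbxw14 and Fbxw24. Fbxw20 has 5 runs, of which CATCTG and CAGCTG are also found in Fbxw14 and Fbxw24. An E-box was present in 7 of 7 cluster promoters, and 72.1% of all RefSeq promoters of this length (27025, 1 a gene) hold at least 1, so its presence does not set them apart. TATAAA was in 0 of 7, against 14.2% of all promoters. The same held for TAATTG, found in 8.15% of all promoters (both read on either strand). CpG sites were few: a median of 0 per promoter (range 0 to 4) in the 7 cluster members, against 7 over all genes, 23 (11 to 30) in 10 Psm genes and 20 in the other members with a promoter. These matches describe the letters and name no site in use.

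In the cluster the highest counts were those of Fbxw14, with 74574, 70042 and 82976 in control and 53467, 59864 and 45739 in Ehmt2GKO. Each Ehmt2GKO library was below each control library, and the log2 fold change was -0.52 (SE 0.12, edgeR adjusted P = 0.000813). Fbxw24 had 54058, 45344 and 48080 counts against 42281, 36143 and 30866. Fbxw28 had 53516, 41946 and 47418 against 32786, 36579 and 32202. In both genes the libraries again fell into 2 separate ranges, at log2 fold changes of -0.44 and -0.50 (both SE 0.12). The lowest member, Fbxw13, had 777, 713 and 645 counts in control and 412, 426 and 329 in Ehmt2GKO, and with -0.88 (SE 0.14) it differed most. Fbxw20, its neighbour, came next at -0.60 (SE 0.11), and Fbxw22 differed least at -0.32 (SE 0.11).

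Fbxw27, Fbxw15, Fbxw18 and Fbxw16 lay between -0.49 and -0.46. Thus all 10 listed members were lower in Ehmt2GKO, from -0.88 to -0.32, and none passed the fold of 2. The groups did not overlap in any of the 10, as in 98.3% of all tested genes. Summed over the 10 genes, normalised counts were 263434, 229080 and 245885 in control and 181472, 195078 and 153934 in Ehmt2GKO. The Ehmt2GKO mean was 71.8% of the control mean, and between 68.1% and 76.5% with any library left out. Fbxw23 was at -0.96 (SE 0.11). The genes are not independent measurements, because each has a closest relative in the array at 81.1% to 99.1% transcript identity, and Fbxw14 and Fbxw28, alike at 99.1% over the 79.4% of Fbxw28 that aligned, could have exchanged reads.

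**Figure D3:**
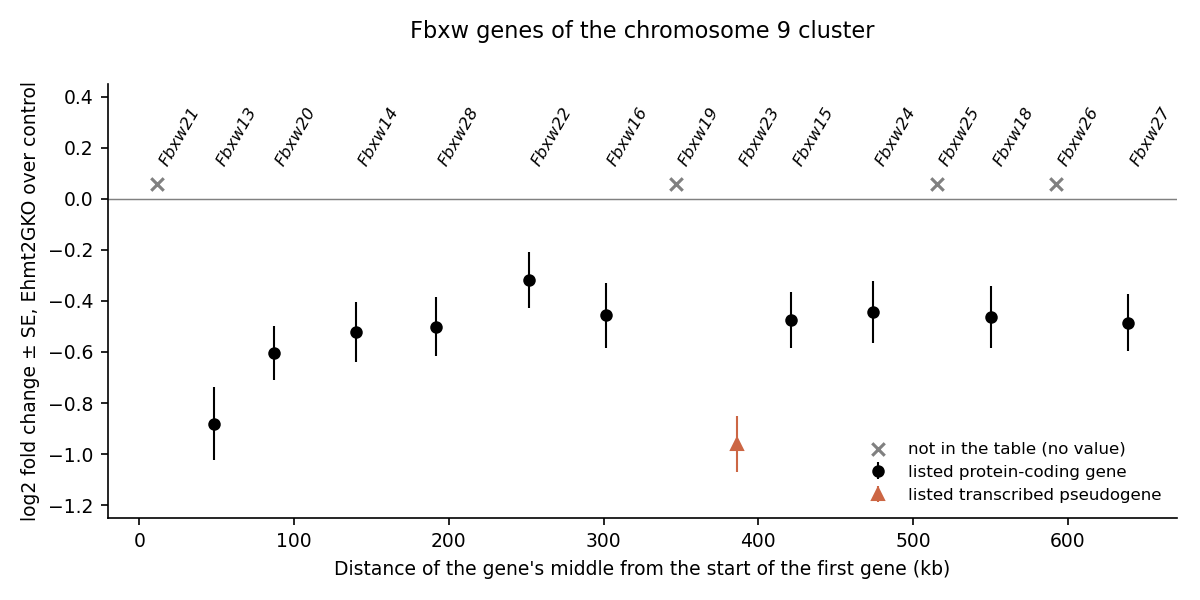
Log2 fold change with its standard error (y axis, Ehmt2GKO over control, 3 against 3 libraries) of the Fbxw genes of the chromosome 9 cluster, at the distance of each gene's middle from the start of the first gene in kb (x axis). The 10 listed protein-coding genes (circles) lie between -0.88 and -0.32, the pseudogene Fbxw23 (triangle) at -0.96, and crosses mark 4 genes without a value.

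Outside the cluster 12 Fbx genes are listed, and 7 of 11 tested lay above 0. Fbxo3 had 932, 999 and 1050 counts in control and 2214, 2387 and 2967 in Ehmt2GKO. No Ehmt2GKO library came near the control range, and Fbxo3 rose with a log2 fold change of 1.34 (SE 0.12, edgeR adjusted P = 1.18e-07). Exons of Fbxo3 overlap 4931422A03Rik on the other strand, and the library kit does not mark strand, so reads of the overlap could come from either. Fbxo15, a gene long used as a reporter of pluripotent stem cells, had 482, 486 and 645 counts against 1076, 1188 and 1199. It rose by 1.10 on the log2 scale (SE 0.13), again with no overlap. Fbxo47, known for its part in meiotic prophase of male germ cells, went the other way, from 94, 129 and 115 counts to 63, 56 and 38. It fell by 1.11 on the log2 scale (SE 0.26), and without Ehmt2GKO 5 the value was -0.92 and no longer called.

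Fbxo27 was near absent from control, with 0, 0 and 1 counts, and had 11, 4 and 8 in Ehmt2GKO. The ratio of its summed scaled counts was 22.9 with a 95% counting interval from 3.72 to 942, which covers counting error alone. Fbxo25 had 430, 374 and 455 counts against 785, 696 and 806, at 0.85 (SE 0.13). Fbxw7, the receptor for cyclin E, had 428, 359 and 435 against 576, 607 and 520, at 0.47 (SE 0.14). Fbxo42, Fbxl6 and Fbxo21 lay at 0.58, 0.56 and 0.39. Below 0 without a call were Fbxo36 at -0.98 (83, 84 and 125 counts against 50, 56 and 42), Fbxo8 at -0.58 and Fbxl17 at -0.58. Fbxo8 was the most abundant of these per kb, with a control mean of 2474 normalised counts per kb.

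The other scaffolds and receptors were few. Cul5, the scaffold that Asb proteins bind, had 7243, 6412 and 6446 counts in control and 5483, 5474 and 5134 in Ehmt2GKO, a log2 fold change of -0.33 (SE 0.10). Asb4, a SOCS-box receptor of that scaffold from a group of imprinted genes on chromosome 6, rose from 180, 156 and 209 counts to 482, 458 and 565. Its log2 fold change was 1.46 (SE 0.16, edgeR adjusted P = 7.44e-07), and no library of 1 group reached the other. Among Klhl genes, whose proteins join Cul3, Klhl6 is best known from B cells. It had 2, 1 and 3 counts in control and 16, 22 and 13 in Ehmt2GKO, for a ratio of 8.45 (95% counting interval 3.63 to 24.1). Its fitted log2 fold change of 3.01 depends on how so few control counts are treated, and the gene entered the test through its Ehmt2GKO counts, so its call is a description. Klhl29 lay at 0.98, Klhl12, a partner of Cul3 in secretory coat formation, at 0.55, Klhl24 at 0.48 and Klhl1 at -0.97, and none of these 4 passed the fold of 2.

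Of the 12 listed Psm genes 11 were lower in Ehmt2GKO oocytes, and 1 of them, Psmb2, was called (8.33%, against 16.9% of all tested genes called lower). Subunits of the core particle came first. Psmb2, a beta-ring subunit without catalytic activity, had 1656, 1826 and 1789 counts in control and 830, 659 and 568 in Ehmt2GKO. Control libraries lay close together, and every Ehmt2GKO library was far below them. Psmb2 fell by 1.37 on the log2 scale (SE 0.13, edgeR adjusted P = 1.72e-07), from a mean of 1761 ± 65.4 to 683 ± 121 normalised counts (SD, n = 3 libraries each). The alpha-ring gene Psma5 had 837, 1014 and 801 counts against 528, 386 and 442, at -0.98 (SE 0.14). This is just under the fold of 2, and processed pseudogenes, 1 of them listed (Gm8394, 98.6% identical), could share its reads. Psma1, of the same ring, had 4401, 3818 and 3654 against 3013, 2382 and 2481, at -0.60 (SE 0.11). The beta-ring gene Psmb3 was also at -0.60 (SE 0.17), with 638, 448 and 595 counts against 481, 333 and 303, so that Ehmt2GKO 3 lay above control 2.

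Regulatory particle genes split. Psmc6, an ATPase of its base, had 1670, 1660 and 1475 counts in control and 1198, 1023 and 962 in Ehmt2GKO, at -0.60 (SE 0.11). Psmd2, the large scaffold of the base, was at -0.38 with 1555, 1693 and 1529 against 1342, 1108 and 1240, and the lid gene Psmd8 was at -0.38 with 1339, 1453 and 1480 against 1063, 1074 and 1164. Psmd3, another lid gene, was the exception among the 12. It had 943, 1391 and 1114 counts in control and 1552, 1347 and 2306 in Ehmt2GKO, at 0.59 (SE 0.17). Its groups overlapped, with Ehmt2GKO 4 below control 2 and the difference resting most on Ehmt2GKO 5: with any library left out it ran from 0.33 to 0.74.

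The 4 listed assembly chaperones of the proteasome were all lower. Psmd5 had 3265, 3754 and 4103 counts in control and 2405, 2284 and 2422 in Ehmt2GKO, at -0.65 (SE 0.10). Psmd10, also called gankyrin, and Psmg1, which helps to build the alpha ring, were both at -0.52. Psmd9 was at -0.44 with 5169, 5102 and 5735 counts against 3846, 3996 and 3969. Summed over all 12 Psm genes, normalised counts were 24381, 24339 and 24398 in control and 17655, 16542 and 17272 in Ehmt2GKO. The SD between libraries was 30.7 in control and 566 in Ehmt2GKO. Among single Psm genes only Psmd10 had a smaller control SD (22.7), and that of Psma1 was 489. Deviations of single genes thus offset each other in the control sum. The Ehmt2GKO mean was 70.4% of the control mean and stayed between 69.4% and 71.7% with any library left out. Of 50 annotated Psm genes the other 38 were not analysed here, so this sum describes the listed subunits and not the proteasome.

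**Figure D4:**
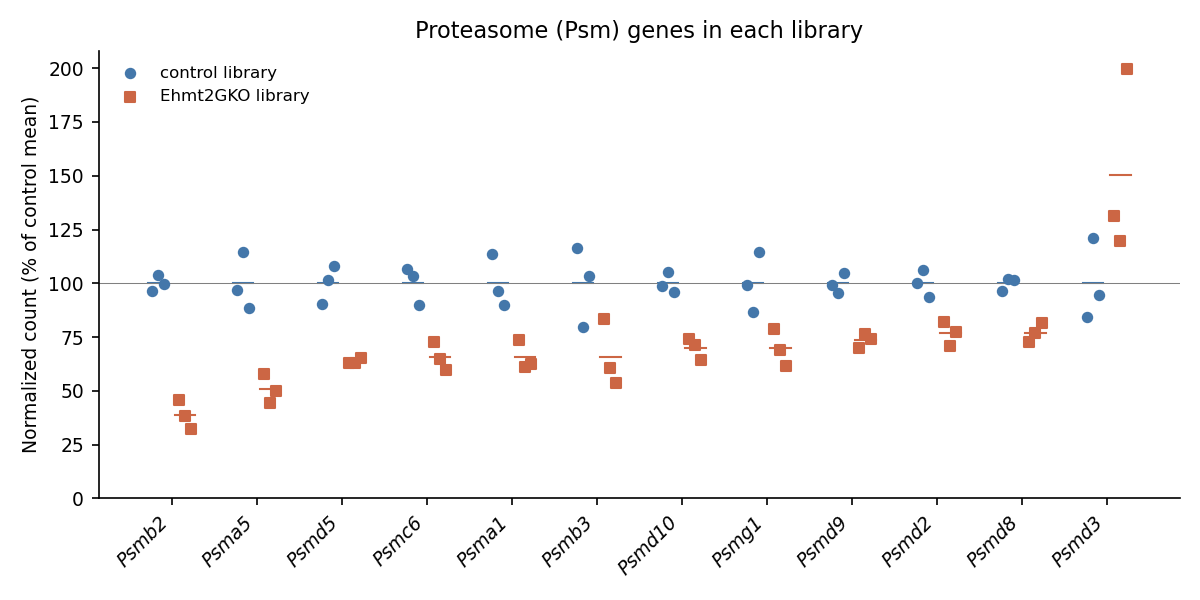
Normalised counts of the 12 listed Psm genes in each library as a percentage of that gene's control mean (y axis from 0), control libraries as circles and Ehmt2GKO libraries as squares, with a short line at each group mean. In 10 genes all 3 squares lie below all 3 circles, Psmb3 overlaps, and Psmd3 lies above 100%. Of all tested genes 98.3% had groups without overlap.

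Psm promoters were unlike those of the Fbxw array in composition. That of Psma1 (chr7:114276067-114276366, GRCm38.p6, minus strand, RefSeq) is shown as a CpG-rich example, with 25 CpG sites against 0 in Fbxw14, and its 2 CCAAT boxes, read on either strand, are in capitals.
Psma1: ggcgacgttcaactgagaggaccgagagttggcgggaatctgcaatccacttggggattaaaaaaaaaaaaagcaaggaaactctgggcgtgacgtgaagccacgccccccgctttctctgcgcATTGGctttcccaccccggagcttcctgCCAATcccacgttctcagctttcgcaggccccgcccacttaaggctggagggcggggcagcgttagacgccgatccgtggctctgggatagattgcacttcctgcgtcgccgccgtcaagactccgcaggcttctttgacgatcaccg
CCAAT was in 3 of the 10 Psm promoters found, against 37.9% of all promoters. The Ets core CCGGAAG was in 3 of 10 as well, against 9.12% of all promoters.

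Deubiquitinases of the Usp class gave 3 calls among 5 listed genes, all higher, against 18.7% of all tested genes called higher. Usp13 had 252, 308 and 268 counts in control and 848, 919 and 950 in Ehmt2GKO. The 2 groups lay far apart. Usp13 rose with a log2 fold change of 1.71 (SE 0.13, edgeR adjusted P = 2.39e-08), from 277 ± 27.9 to 904 ± 68.0 normalised counts (SD, n = 3 libraries each). Usp11 had 49, 48 and 32 counts against 124, 112 and 124, a rise of 1.47 (SE 0.26). Usp25 had 26, 26 and 28 against 57, 66 and 57, a rise of 1.16 (SE 0.30), on few counts. Usp43 lay at 0.58 (SE 0.18). Usp8, which acts on receptors at endosomes, was the one Usp gene lower, with 1489, 1520 and 1460 counts against 1212, 1014 and 1238, at -0.38 (SE 0.11).

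No conjugating enzyme gene was called (0 of 6, against 35.7% of all tested genes). Ube2j1, which serves degradation of proteins from the endoplasmic reticulum, had 127, 150 and 160 counts against 280, 256 and 271, at 0.88 (SE 0.17). Ube2e3, Ube2q2 and Ube2h lay at 0.58, 0.54 and 0.41. Ube2h was the most abundant of these, with 6619, 7284 and 6701 against 8650, 9041 and 9737 counts. Ube2a, a homologue of yeast Rad6, had 381, 541 and 512 counts in control and 315, 226 and 261 in Ehmt2GKO, at -0.85 (SE 0.16). Ube3a, a HECT ligase imprinted in neurons, had 1354, 1509 and 1404 counts against 2199, 1940 and 2037, at 0.52 (SE 0.10). Its exons overlap Snhg14 on the other strand, which these libraries cannot set apart.

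Trim genes lay mostly above 0, in 8 of 11, against 49.4% of all tested genes. Of the 11, 3 were called, all higher. This is 27.3%, against 35.7% of all tested genes called in either direction and 18.7% called higher. Trim61, the most abundant member, had 125975, 131691 and 117830 counts in control and 159773, 173030 and 172001 in Ehmt2GKO. The groups did not overlap, and the log2 fold change was 0.42 (SE 0.11, edgeR adjusted P = 0.00193), short of the fold of 2. Trim61 shares exon bases with Trim60 on the same strand, so the 2 genes are not fully separable. Alone it took 3.10%, 3.16% and 2.77% of the listed counts in control and 3.81%, 4.13% and 4.04% in Ehmt2GKO.

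Trim40 had 153, 93 and 119 counts in control and 466, 462 and 431 in Ehmt2GKO, and rose by 1.89 (SE 0.18, edgeR adjusted P = 2.45e-07). Its neighbour Trim15, 14.4 kb away on chromosome 17, lay on the other side of 0, at -0.94 (SE 0.22) with 188, 199 and 304 counts against 119, 146 and 96. Trim30d had 238, 208 and 158 counts against 573, 684 and 613 and rose by 1.62 (SE 0.17). Trim6, on the same chromosome 7 and 235 kb from Trim30d, had 73, 60 and 150 against 154, 221 and 288. It rose by 1.23 (SE 0.29), but control 6 nearly touched Ehmt2GKO 3, and the call was lost without control 2 or without Ehmt2GKO 5 (0.98 at the lowest). Trim32, Trim68, Trim35 and Trim36 lay at 0.78, 0.66, 0.59 and 0.56. Trim23 and Trim13, which sits in the endoplasmic reticulum membrane, lay at -0.55 and -0.43, the latter with 16263, 15457 and 16230 counts against 11992, 12375 and 11450.

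Rnf genes were evenly split, 9 above 0 and 9 below, with 4 called (22.2%, against 35.7% of all tested genes). Rnf165 had 218, 175 and 172 counts in control and 323, 401 and 497 in Ehmt2GKO, and rose by 1.10 (SE 0.18, edgeR adjusted P = 6.39e-05), though without Ehmt2GKO 5 the value was 0.94. Rnf149 had 17, 41 and 24 counts against 59, 84 and 53 (1.25, SE 0.35), and Rnf11 had 6, 19 and 12 against 38, 22 and 50 (1.55, SE 0.44). Both rose on so few counts that leaving out 1 of 3 libraries ended the call, control 1, control 6 or Ehmt2GKO 4 for Rnf149 and control 1, Ehmt2GKO 3 or Ehmt2GKO 5 for Rnf11. Of 2838 exon bases of Rnf149, 707 are shared with Gm15832 on the same strand, so reads there could come from either gene. Rnf207 fell by 1.01 on the log2 scale (SE 0.25), from 151, 135 and 126 counts to 78, 44 and 85. The call was lost without control 1 or without Ehmt2GKO 4, at -0.79 in the smallest case. Rnf207 also lost its call under RLE factors and DESeq2 (both -0.91) and under a mean of at least 50 counts (-0.99). Its exons overlap Icmt on the other strand.

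The remaining Rnf genes stayed under the fold of 2. Above 0 were Rnf126 at 0.83, Rnf145 at 0.81, Rnf215 at 0.74, Rnf219 at 0.61, Rnf130 at 0.57 and Rnf138 at 0.38. Of these Rnf219 had the most counts, 2541, 2569 and 2908 in control and 3688, 4120 and 4438 in Ehmt2GKO. Below 0 were Rnf167 at -0.82, Rnf181 at -0.76, Rnf113a2 at -0.74, Rnf24 at -0.72, Rnf139 at -0.55, Rnf141 at -0.40, Rnf13 at -0.36 and Rnf4 at -0.33. Rnf113a2 was very even within groups, with 2250, 2166 and 2337 counts against 1365, 1273 and 1424. Rnf4, the ligase that recognises SUMO chains, had 11223, 13180 and 14394 against 10282, 10345 and 10438. Rnf141 overlapped between groups because control 1, at 7455 counts, lay below 2 Ehmt2GKO libraries.

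**Figure D5:**
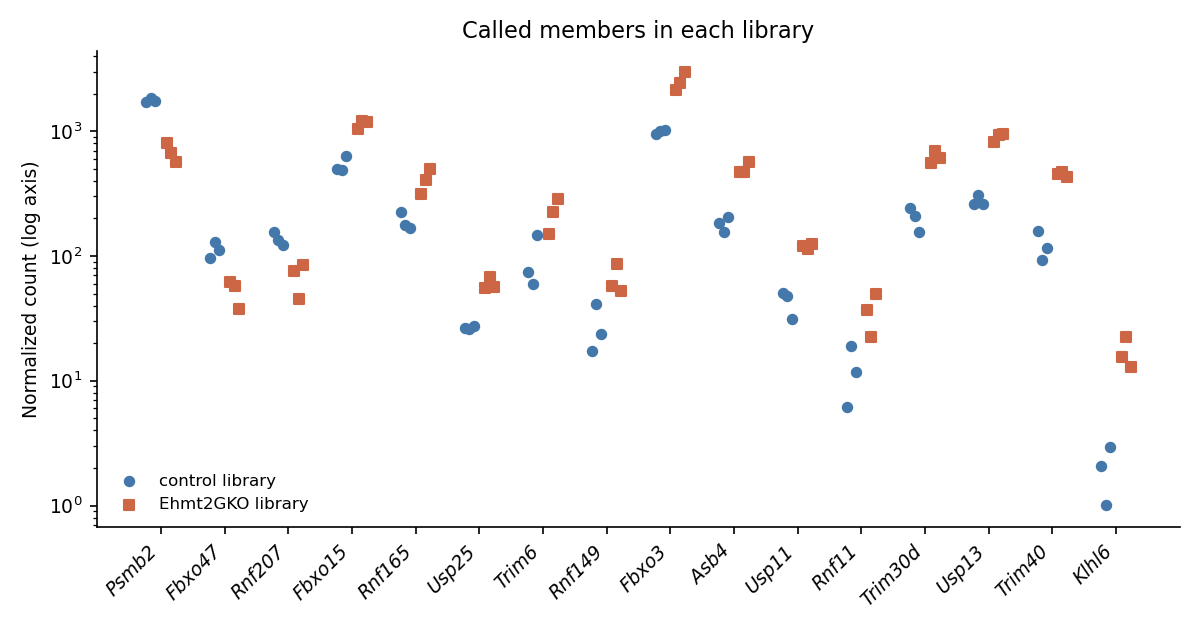
Normalised counts (y axis, log axis) of the 16 called members in each control library (circles) and each Ehmt2GKO library (squares), ordered by log2 fold change. The groups are separate in all 16, as in 98.3% of all tested genes. Psmb2, Fbxo47 and Rnf207 at the left are lower in Ehmt2GKO, and the other 13 are higher.

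Lists of other genes of the pathway hold 224 annotated genes, of which 43 are listed and 42 were tested: 17 lay above 0 and 25 below, with 1 called higher and 5 called lower, against 18.7% and 16.9% of all tested genes. The anaphase-promoting complex, the ligase that marks securin and cyclin B, had 6 of 16 genes listed, and all 6 were lower. Of these Anapc11, its RING subunit, fell by 1.14 (SE 0.16) from 858, 744 and 695 counts to 422, 270 and 360. Anapc16, Cdc16, Anapc1, Anapc4 and Anapc10 lay between -0.65 and -0.36. Nedd8, the ubiquitin-like protein that activates cullins, fell by 1.30 (SE 0.18), from 788, 627 and 663 counts to 392, 243 and 219. Nae1, a part of its activating enzyme, was at -0.55, on 16857, 16662 and 18697 counts against 12506, 13018 and 10270.

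Partners of the members lay on both sides of 0. Skp1a, which F-box proteins bind, had 25579, 24222 and 23983 counts in control and 19099, 17577 and 16716 in Ehmt2GKO, at -0.48 (SE 0.10), while the F-box gene Skp2 was at 0.63 (SE 0.13). Sem1, a small lid subunit of the proteasome, fell by 1.40 (SE 0.20), with 385, 299 and 254 counts against 142, 106 and 110. Pomp, which helps the core particle mature, was at -0.59 (SE 0.16). Among deubiquitinases outside the Usp class, Atxn3 fell by 1.33 (SE 0.17) and Stambpl1 rose by 2.13 (SE 0.27). The RING ligase gene Peli2, which entered the test through its control counts, fell from 55, 39 and 57 counts to 0, 5 and 7. Its fitted log2 fold change of -3.62 rests on these few counts: it was -4.27 without Ehmt2GKO 5 and -3.04 without Ehmt2GKO 3.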

How the data were processed

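Polyadenylated RNA of the 6 oocyte libraries was amplified with the SMART-Seq v4 kit, which does not mark strand. The authors deposited raw read counts per gene with their own fold changes and P values, which were not used beyond seeing that all 2615 genes had an adjusted P below 0.05. The submitters' processing notes name HISAT2, DESeq2 and GRCm38. The counter and the annotation are not given in the sources used here. The 11 bisulfite samples were not used.

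Counts were fitted with edgeR 4.0.16 in R 4.3.3: TMM factors, filterByExpr (minimum count 10), glmQLFit and glmQLFTest, with Benjamini-Hochberg adjustment over 2516 genes and calls at a fold above 2 and an adjusted P below 0.01. The fit was tested on simulated data. Normalised counts are counts divided by relative effective library size. Exon lengths came from GENCODE vM21, transcript identity from blastn 2.17.0 and promoters from RefSeq. Subfamilies, pathway lists and markers were chosen with earlier results of these data known. Named genes were the largest called changes, the largest in each subfamily, known meiotic or proteolytic genes, those near 0 counts, called pathway genes and the most abundant of each subfamily. The other members and the pathway genes without a call were named after their values were seen. No label tells whether libraries came from separate mice, so P values measure the spread between libraries. Alternatives used DESeq2 1.42.0 and limma 3.58.1. The values of 1 member are not reported here.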

Additional observations from a re-analysis of the deposited data

How the results depend on the processing

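The direction of all 81 tested members was kept under the 5 scalings compared. Under RLE factors and under DESeq2 every value moved up by 0.09 (median over members), and the members' median log2 fold change was -0.23 under both in place of -0.33. Both called 14 members higher and 2 lower. Requiring a mean of at least 50 counts gave 10 higher and 2 lower. With protein-coding genes alone the median was -0.37 and 6 members were called lower in place of 3. Testing the fold itself against 2 left 6 members called, 5 higher and 1 lower. Calling at an adjusted P below 0.01 with no limit on the fold, an alternative chosen after seeing the data, gave 80 members, 39 higher and 41 lower. That count holds for the TMM fit. Under RLE factors the edgeR adjusted P was 0.0519 for Rnf4, 0.0385 for Cul5 and 0.0222 for Usp8, each with a small fall. How many members stay below 0.01 under RLE factors was not counted. With each library left out in turn, 12 to 18 members were called, 10 to 13 higher and 2 to 6 lower, and the median ran from -0.34 to -0.29. For 33 genes values were recomputed under the alternatives: where tested, 14 lost a call under at least 1 of them, 29 calls were lost in all, 0 were gained and 0 directions reversed. Members outside these 33 did gain calls. With 1 library left out, Psma5, Klhl1, Trim15 and Fbxo36 were each called in 3 of 6 fits and Klhl29 in 2. Under a mean of at least 50 counts 5 of the 33, all called before (Klhl6, Peli2, Rnf11, Rnf149 and Usp25), were not tested and are not among these losses. No paired analysis was possible because control libraries are numbered 1, 2 and 6 and Ehmt2GKO libraries 3, 4 and 5. All alternatives ran on genes selected from the same libraries, so they say little about stability. Klhl6, Fbxo27, Peli2, Rnf11, Rnf149 and Usp25 are limited by few counts.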
